A study of Mus musculus with 2 samples.

Results

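Granzyme D to G killer cells are lymphocytes that carry several transcripts of Gzmd, Gzme, Gzmf and Gzmg, and 4365 of them were found among 67031 filtered cells from mouse tumours. The tumours grew from the colon carcinoma line MC38 and were collected on day 19. Live CD45+ cells, that is leukocytes, were isolated from them. The treated group, BiDT, and the control group, Ctrl, gave 1 library each, and each library pooled cells of 5 biological replicates. What BiDT stands for is not spelled out in the labels, while the title of the series speaks of an interferon fused to anti-TIM3. The strain, age and sex of the mice and what the Ctrl group received are not stated in the labels, and the groups share the tumour line, the day and the batch number. With 1 library per group there is no replicate check and no test between groups, and every 95% interval below covers counting error only.

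A cell was a killer cell if it had at least 500 UMIs (unique molecular identifiers, each counting 1 RNA molecule), at most 10% mitochondrial UMIs, at least 3 UMIs summed over Gzmd, Gzme, Gzmf and Gzmg, at least 1 UMI over Cd3d, Cd3e, Cd3g, Ncr1, Klrb1c and Klre1, and no UMI of Csf1r, a gene of macrophages and monocytes. Killer cells with a Cd3 UMI are called killer T cells here, and those with none killer NK cells. The BiDT library held 34423 filtered cells with a median of 2670 UMIs, and the Ctrl library 32608 filtered cells with a median of 4267.5 UMIs. The same 713 barcodes occurred in both libraries, 57 of them on BiDT killer cells and 17 on Ctrl killer cells. Leaving these cells out kept the log2 ratio of the killer cell share at 1.74.

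Granzymes are serine proteases that killer lymphocytes store in cytotoxic granules and release at a target cell, where perforin, a pore-forming protein, lets them in. Granzyme B sets off apoptosis by cleaving caspases and other proteins. Granzymes C to G are encoded beside granzyme B in the mouse and are known from strongly activated T cells, from NK cells grown in interleukins and from the NK cells of the pregnant uterus, while their substrates are less well defined.

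The 5 genes C to G lie in 1 cluster on chromosome 14, and their promoters are shown because the cells were chosen on 4 of these neighbouring genes and the fifth, Gzmc, is the main readout outside the choice. In the RefSeq order Gzme, Gzmd, Gzmg, Gzmn, Gzmf, Gzmc and Gzmb follow one another, apart from pseudogenes and small RNA genes. Each sequence runs 5′ to 3′ from 250 bases before to 50 bases after the transcript start of the RefSeq GRCm38.p6 annotation, all 5 on the minus strand. Capitals mark TGTGGT, the core letters bound by RUNX factors, which appears as ACCACA where it lies on the other strand. The positions are chr14:56132544-56132843 for Gzmd, chr14:56120576-56120875 for Gzme, chr14:56211358-56211657 for Gzmf, chr14:56159530-56159829 for Gzmg and chr14:56234608-56234907 for Gzmc.
Gzmd: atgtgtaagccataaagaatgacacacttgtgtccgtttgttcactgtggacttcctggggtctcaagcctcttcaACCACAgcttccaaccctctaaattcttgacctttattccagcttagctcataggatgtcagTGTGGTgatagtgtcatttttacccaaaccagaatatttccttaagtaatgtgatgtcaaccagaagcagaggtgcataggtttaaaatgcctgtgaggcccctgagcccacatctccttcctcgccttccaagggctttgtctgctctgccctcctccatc
Gzme: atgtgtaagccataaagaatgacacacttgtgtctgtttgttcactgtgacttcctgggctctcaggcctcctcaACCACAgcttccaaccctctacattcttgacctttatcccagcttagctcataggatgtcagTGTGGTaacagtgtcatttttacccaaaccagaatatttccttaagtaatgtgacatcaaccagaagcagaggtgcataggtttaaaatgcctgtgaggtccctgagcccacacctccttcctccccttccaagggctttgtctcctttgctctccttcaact
Gzmf: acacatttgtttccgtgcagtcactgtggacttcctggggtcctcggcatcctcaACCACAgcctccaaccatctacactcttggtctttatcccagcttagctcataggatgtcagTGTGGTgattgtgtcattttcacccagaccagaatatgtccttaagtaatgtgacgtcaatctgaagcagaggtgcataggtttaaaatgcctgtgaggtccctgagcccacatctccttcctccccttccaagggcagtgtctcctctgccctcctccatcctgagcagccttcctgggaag
Gzmg: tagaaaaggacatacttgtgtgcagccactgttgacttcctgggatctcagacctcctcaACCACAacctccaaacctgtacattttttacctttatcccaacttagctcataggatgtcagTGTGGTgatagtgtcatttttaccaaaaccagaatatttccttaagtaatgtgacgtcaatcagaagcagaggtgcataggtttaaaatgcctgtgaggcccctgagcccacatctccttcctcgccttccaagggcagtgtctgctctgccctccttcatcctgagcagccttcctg
Gzmc: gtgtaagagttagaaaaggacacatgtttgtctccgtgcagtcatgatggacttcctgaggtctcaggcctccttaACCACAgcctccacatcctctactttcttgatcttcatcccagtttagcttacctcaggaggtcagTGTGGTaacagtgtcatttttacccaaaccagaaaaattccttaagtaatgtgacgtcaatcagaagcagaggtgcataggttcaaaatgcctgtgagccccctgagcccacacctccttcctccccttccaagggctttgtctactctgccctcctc
Each of the 5 promoters held 2 matches in opposite orientation, the upstream one reading on the minus strand relative to the gene. In Gzmd they began 174 and 112 bases before the start, and in Gzmc 174 and 108 bases before it. On either strand, 16.8% of all 32851 promoters of the same length held at least 1 TGTGGT and 1.81% held 2 or more. The promoter of Gzmb, the next gene of the cluster, also held 2 TGTGGT matches, both on the plus strand, beginning 93 and 34 bases before the start, and 1 match each of the AP-1 and STAT letters below. The promoters of Gzmd, Gzme, Gzmf and Gzmg were 89.2% to 94.0% identical to one another, so the 5 matches are not independent. The letters TATAAA, which 13.6% of all promoters hold on either strand, matched in none of the 5. The same held for the AP-1 letters TGANTCA (7.81% of all promoters) and the STAT letters TTCNNNGAA (8.30%). The T-box letters GGTGTGA (3.98%) had no match either. Nor had the NFAT letters GGAAAA (23.4%) or the E-box letters CAGGTG (20.2%), so no match of one motif overlapped another. The motifs were chosen after the sequences had been seen.

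Identity also limits how well the transcripts are told apart. Over their aligned mRNAs, Gzmd and Gzme were 94.98% identical and Gzme and Gzmf 88.94%, and over the last 300 bases, where 3′ reads fall, Gzmd and Gzme were 95.37% identical. Gzmc was 79.7% to 81.2% identical to the other 4. The labels do not say how reads matching more than 1 of these genes were counted, so levels of single genes among D to G are uncertain, while their sum is less so.

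Killer cells made up a larger share of the BiDT library. They were 3400 of 34423 BiDT cells (9.88%, interval 9.56% to 10.2%), against 965 of 32608 Ctrl cells (2.96%, 2.78% to 3.15%), a log2 ratio of 1.74 (1.64 to 1.84) or 3.34-fold. Killer NK cells were 4.85% of BiDT and 1.23% of Ctrl cells (log2 1.98), and killer T cells 5.03% and 1.73% (log2 1.54). Killer T cells with a Cd8a or Cd8b1 UMI, killer CD8 T cells below, were 3.24% of BiDT and 1.36% of Ctrl cells (log2 1.25). NK and CD8 T cells below the granzyme threshold, called other NK and other CD8 T cells below, also took larger shares of BiDT. They were 3.72% and 7.91% of BiDT cells and 1.25% and 5.05% of Ctrl cells. The denominators differed in other cells too, since cells with 3 or more Csf1r UMIs were 6.76% of BiDT and 24.95% of Ctrl cells. With every cell thinned to 1000 UMIs the log2 ratio of the killer cell share was 1.57, and no filtered cell was shallower than that.

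Both lineages were found among the killer cells, in shares that depend on how a T cell is defined. Of the killer cells, 1670 of 3400 in BiDT (49.1%, 47.4% to 50.8%) and 402 of 965 in Ctrl (41.7%, 38.5% to 44.8%) were killer NK cells, and the remaining 1730 and 563 were killer T cells. Of the killer T cells, 1115 in BiDT and 443 in Ctrl carried Cd8. Few of those without Cd8 had a Cd4 UMI (20 in BiDT and 15 in Ctrl) or a UMI of Trdc, the constant gene of the delta chain (38 and 13).

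The lineage calls rest on few UMIs, and part of the killer T cells also carried UMIs of NK receptor genes. Trac, the constant gene of the T cell receptor alpha chain, had a UMI in 60.4% of BiDT and 73.6% of Ctrl killer CD8 T cells, and in 3.53% and 5.22% of killer NK cells. Among the 615 BiDT and 120 Ctrl killer T cells without Cd8, Trac had a UMI in 16.7% in both libraries, while 62.3% and 55.8% had a UMI of Ncr1, Klrb1c or Klre1, receptors of NK cells. A single Cd3 UMI made the call in 26.2% of BiDT and 10.3% of Ctrl killer T cells. On the NK side, 33.1% of BiDT and 20.4% of Ctrl killer NK cells had a single UMI of Ncr1, Klrb1c and Klre1. With 2 Cd3 UMIs asked of a T cell, the NK share was 62.5% in BiDT and 47.7% in Ctrl.

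Beta chain constant genes gave another picture from Trac. Trbc1 stood at 288 CPM (CPM, a gene's UMIs scaled to a common total of UMIs per gate) in BiDT and 363 CPM in Ctrl killer NK cells, against 324 CPM and 310 CPM in other NK cells, close to the 354 CPM and 395 CPM of killer CD8 T cells. Cells with 3 or more Csf1r UMIs had 24.4 CPM in BiDT and 9.16 CPM in Ctrl of Trbc1. Trbc2 stood at 173 CPM and 223 CPM in killer NK cells and at 818 CPM and 857 CPM in killer CD8 T cells. If Trac, Trbc1 and Trbc2 were counted with Cd3, the NK share of the killer cells would be 13.97% in BiDT and 5.29% in Ctrl.

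Markers of other cell types were also present in the killer cells. The fixed NK marker list summed to 5072 CPM in BiDT and 6290 CPM in Ctrl killer NK cells, with all 12 genes at 10 or more UMIs. It summed to 9321 CPM and 6931 CPM in other NK cells and to 2574 CPM and 2387 CPM in killer CD8 T cells. In cells with 3 or more Csf1r UMIs it had 2847 CPM and 2837 CPM, again with all 12 genes at 10 or more UMIs. The CD8 T marker list summed to 5027 CPM and 5460 CPM in killer CD8 T cells, with all 10 genes. It had 5405 CPM and 5839 CPM in other CD8 T cells and 591 CPM and 705 CPM in killer NK cells. The macrophage and monocyte list of 10 genes, which includes the gated Csf1r, summed to 586 CPM in BiDT and 559 CPM in Ctrl killer NK cells, against 743 CPM and 1032 CPM in other NK cells and 11560 CPM and 13120 CPM in cells with 3 or more Csf1r UMIs. In killer CD8 T cells it was 622 CPM and 606 CPM, against 1075 CPM and 1002 CPM in other CD8 T cells. At least 1 UMI of C1qa, C1qb, C1qc or Ms4a7 was found in 47.8% of BiDT and 56.0% of Ctrl killer NK cells, against 43.4% and 47.9% of other NK cells. The mast cell and basophil list of 9 genes summed to 38.3 CPM in BiDT and 15.8 CPM in Ctrl killer NK cells, with 7 and 5 genes detected, Hdc the highest at 21.7 CPM and 7.91 CPM, and Fcer1a and Ms4a2 at 0. The B and plasma cell list of 7 genes summed to 250 CPM and 142 CPM there, with 5 and 3 genes detected, Ighm at 213 CPM and 141 CPM, and Mzb1 at 0. Other NK cells had 187 CPM and 116 CPM of that list. In killer CD8 T cells the regulatory T list summed to 724 CPM in BiDT and 754 CPM in Ctrl, against 800 CPM and 827 CPM in other CD8 T cells. The CD4 T list had 271 CPM and 445 CPM, against 389 CPM and 534 CPM. The dendritic cell list had 477 CPM and 951 CPM, against 639 CPM and 1164 CPM.

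Free RNA and depth bear on the 3-UMI threshold. Among cells with at least 2 NK UMIs and no Cd3 or Csf1r UMI, 46.6% in BiDT and 44.0% in Ctrl reached 3 granzyme D to G UMIs (median depths 3800 and 4904 UMIs). The share was 29.1% and 21.2% in CD8 T cells (3100 and 3341.5 UMIs). In cells with 3 or more Csf1r UMIs and no Cd3 or NK UMI, which should lack these genes, it was 5.89% in BiDT and 1.25% in Ctrl, at the higher median depths of 6037 and 8425 UMIs. After thinning to 1000 UMIs these shares were 32.5% and 30.7% in NK cells, 16.9% and 11.5% in CD8 T cells, and 0.647% and 0.102% in the Csf1r cells. The NK shares of the libraries had overlapping intervals and the CD8 T shares did not. CD4 T cells, with median depths of 2741 and 2999 UMIs, stood at 6.54% and 3.88% before thinning and at 3.92% and 2.07% after it.

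**Figure D1:**
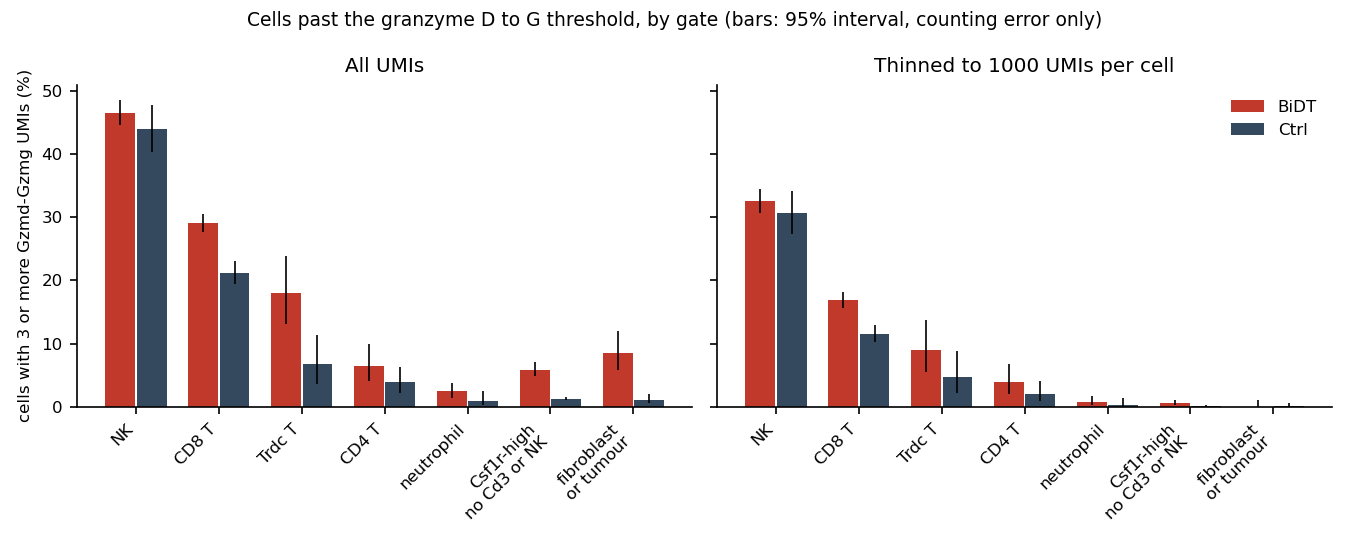
Share of cells in each gate with 3 or more UMIs summed over Gzmd to Gzmg (y axis, percent), with all UMIs on the left and each cell thinned to 1000 UMIs on the right; bars are the BiDT and Ctrl libraries and lines exact binomial 95% intervals. NK cells stood at 46.6% and 44.0% and CD8 T cells at 29.1% and 21.2%, and after thinning the Csf1r-high cells without Cd3 or NK UMIs fell below 1%.

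The threshold cut through a continuous range. Lymphocytes just outside it, with a sum of 2, numbered 685 in BiDT and 136 in Ctrl, and those just inside, with a sum of 3, 361 and 80. Gzmc, which the rule did not use, stood at 3793 CPM in BiDT and 3479 CPM in Ctrl at a sum of 3, against 2862 CPM and 1633 CPM at a sum of 2. The order was not even in Ctrl, with 1856 CPM at a sum of 1 and 2068 CPM at a sum of 4. Cells without a Cd3 UMI made up 39.9% in BiDT and 26.3% in Ctrl at a sum of 3, against 35.6% and 21.3% at a sum of 2, and their part in the Gzmc levels was not tested. Cells with a sum of 0 numbered 5035 and 3280.

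The granzyme sums, which chose the cells and are given as a description, spanned a wide range. In killer NK cells the sum ran from 3 over a median of 18 to 2936 UMIs in BiDT, and from 3 over a median of 33 to 3596 UMIs in Ctrl. In killer CD8 T cells it ran from 3 over 11 to 751 UMIs in BiDT and from 3 over 13 to 345 UMIs in Ctrl. Per 1000 UMIs of the cell the medians were 4.78 and 6.12 in killer NK cells and 3.13 and 2.91 in killer CD8 T cells. The 3-UMI threshold cut both gates from below and their depths differed, so these medians are a description and not a comparison of lineages. The 1% of killer NK cells with the highest sums held 23.1% of the granzyme D to G UMIs in BiDT and 22.3% in Ctrl. In Ctrl killer T cells the top 6 cells held 36.5%, and 1 cell without the Cd8 gate, with 3757 UMIs, held 10.2%.

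Killer CD8 T and killer NK cells differed in the shares of the 4 genes, which also chose the cells. Of the granzyme D to G UMIs of killer CD8 T cells, Gzmf gave 73.4% in BiDT and 62.9% in Ctrl, Gzmd 17.0% and 23.2%, Gzme 7.22% and 10.4%, and Gzmg 2.38% and 3.47%. In killer NK cells Gzmf gave 43.5% and 44.7%, Gzmd 34.1% and 28.8%, Gzme 11.7% and 10.3%, and Gzmg 10.8% and 16.1%. Gzmg thus took a share several times larger in killer NK than in killer CD8 T cells in both libraries. Over all killer T cells, Gzmf gave 59.5% in BiDT and 46.8% in Ctrl, and Gzmd 24.6% and 26.0%. Gzme gave 8.83% and 9.91% there, and Gzmg 7.02% and 17.3%. In Ctrl these shares lay close to those of killer NK cells. In that library 10 cells held 79.6% of the Gzmg UMIs of killer T cells. All 4 genes together were detected in 26.7% of BiDT and 33.1% of Ctrl killer NK cells and in 7.62% and 8.58% of killer CD8 T cells.

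As levels, Gzmd had 3949 CPM in BiDT and 4712 CPM in Ctrl killer NK cells and 859 CPM and 1126 CPM in killer CD8 T cells. Gzme had 1355 CPM and 1683 CPM in killer NK cells and 364 CPM and 505 CPM in killer CD8 T cells. Gzmf had 5038 CPM and 7310 CPM in killer NK cells and 3700 CPM and 3056 CPM in killer CD8 T cells. By CPM Gzmf differed least between these gates and Gzmg most, with 1251 CPM and 2632 CPM in killer NK cells and 120 CPM and 168 CPM in killer CD8 T cells. Gzmg UMIs were concentrated, with 10 cells holding 40.1% in BiDT and 56.6% in Ctrl killer NK cells and 49.04% and 70.8% in killer CD8 T cells. By cells with a UMI the order of Gzmf turned round, with 67.1% and 58.7% of killer NK cells and 90.2% and 79.5% of killer CD8 T cells. Killer T cells without Cd8 had 1164 CPM of Gzmg in BiDT and 7037 CPM in Ctrl, and they include the Ctrl cell with 3757 granzyme D to G UMIs.

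Gzmc, the neighbour the rule left out, was abundant in all killer gates. In killer NK cells it had 12776 CPM in BiDT and 15871 CPM in Ctrl, against 5029 CPM and 6986 CPM in other NK cells, with log2 ratios of 1.35 (1.33 to 1.37) and 1.18 (1.16 to 1.21). In killer CD8 T cells it had 2416 CPM and 2082 CPM, against 439 CPM and 174 CPM in other CD8 T cells, with log2 ratios of 2.46 (2.41 to 2.51) and 3.58 (3.49 to 3.68). A Gzmc UMI was found in 98.0% of BiDT and 98.5% of Ctrl killer NK cells, and in 73.4% and 64.1% of other NK cells, so Gzmc alone did not separate them. In CD8 T cells the shares were 78.7% and 72.9% of killer cells against 41.5% and 17.6% of other cells.

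Granzymes A and B and perforin gave mixed values in killer NK cells and were higher without a call in killer CD8 T cells. Gzma, a tryptase of another chromosome, had 1433 CPM in BiDT and 1151 CPM in Ctrl killer NK cells, against 4366 CPM and 1833 CPM in other NK cells (log2 -1.61 and -0.67), although 55.6% of the Ctrl killer NK UMIs were in 10 cells and the Ctrl ratio stood at 0.06 with a single NK UMI asked of the other cells. Gzmb had 3021 CPM and 1611 CPM in killer NK cells, against 3182 CPM and 874 CPM in other NK cells (log2 -0.07 and 0.88). In killer CD8 T cells Gzmb had 4809 CPM and 2040 CPM, against 3622 CPM and 799 CPM in other CD8 T cells (log2 0.41 and 1.35). Prf1, perforin, had 1172 CPM and 1464 CPM in killer NK cells, against 1160 CPM and 714 CPM in other NK cells (log2 0.01 and 1.04). In killer CD8 T cells Prf1 had 823 CPM and 979 CPM, against 590 CPM and 510 CPM in other CD8 T cells (log2 0.48 and 0.94), and Gzma had 513 CPM and 623 CPM, against 424 CPM and 368 CPM (0.27 and 0.76). Of these 3 genes in the killer over other comparisons, only Gzma in killer NK cells passed in both libraries, as lower.

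**Figure D2:**
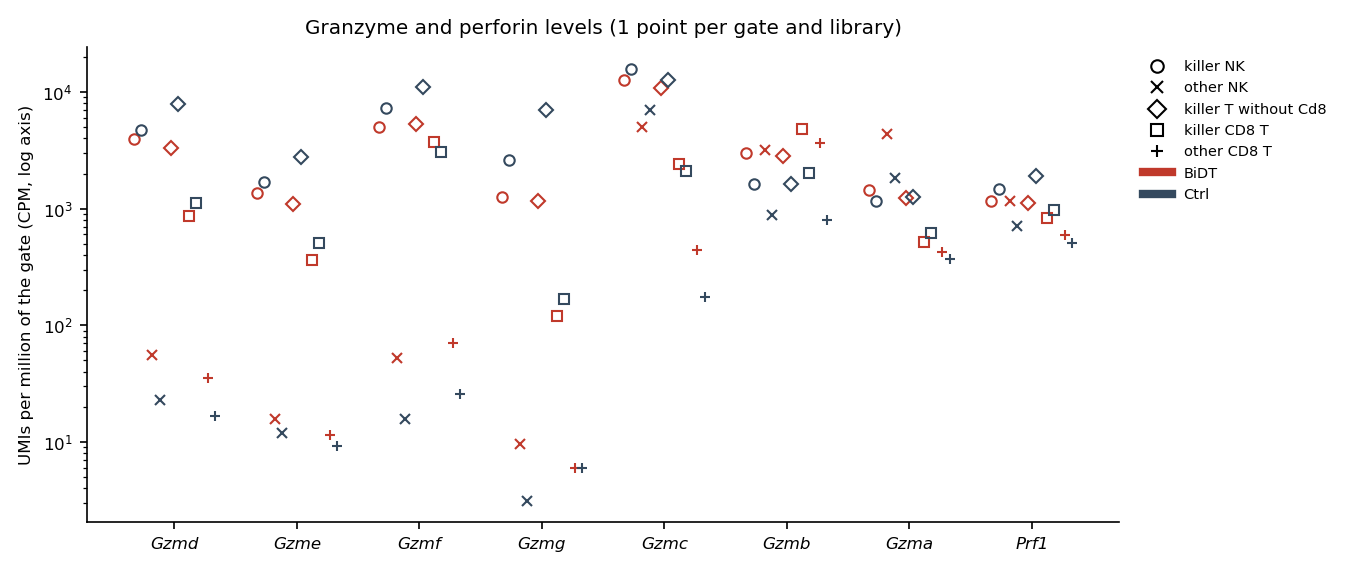
Level of each granzyme gene and perforin (y axis, CPM of the gate, log axis) in 5 gates (symbols) and 2 libraries (colours), 1 point each with no error bar. Gzmd to Gzmg separate killer from other cells by the rule itself, and Gzmc lies higher in NK than in CD8 T cells. Gzma lies lower in killer than in other NK cells in both libraries, while Gzmb and Prf1 differ there mainly in Ctrl. In killer CD8 T cells Gzmb, Gzma and Prf1 lie higher than in other CD8 T cells in both libraries.

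Neighbouring genes of the cluster were also read out, mainly in NK cells, a comparison chosen after values had been seen. Ctsg, which encodes cathepsin G, a serine protease known from neutrophils, and lies next to Gzme, had 199 UMIs in 30 BiDT and 55 UMIs in 10 Ctrl killer NK cells, with 83.9% of the BiDT UMIs in 10 cells. In other NK cells it had 0 UMIs in 1282 BiDT and 407 Ctrl cells, which allows a share of cells with a Ctsg UMI of up to 0.234% and 0.737%, a limit for counting error at these depths and not for cells that express the gene. In killer CD8 T cells Ctsg had 4 UMIs in BiDT (0.71 CPM) and 6 UMIs in Ctrl (2.34 CPM), 5 of the last in 1 cell. Other CD8 T cells had 6 UMIs (0.62 CPM) and 1 UMI (0.15 CPM). The neutrophil marker list summed to 233 CPM in BiDT and 70.8 CPM in Ctrl killer NK cells, against 268 CPM and 183 CPM in other NK cells. Gzmn, between Gzmg and Gzmf, had 25 UMIs in BiDT and 8 UMIs in Ctrl killer NK cells, and 0 UMIs in other NK cells of both libraries. In killer CD8 T cells it had 5 UMIs and 0 UMIs, against 0 UMIs in other CD8 T cells of both libraries. Over all killer T cells it had 10 and 14 UMIs. Whether reads of the abundant Gzmd to Gzmg entered these low counts was not tested. Mcpt8, a protease gene known from basophils, on the far side of Ctsg, had 118 UMIs in 68 BiDT and 19 UMIs in 16 Ctrl killer NK cells, against 3 UMIs and 0 UMIs in other NK cells. Killer CD8 T cells had 18 UMIs and 11 UMIs of Mcpt8, against 2 UMIs and 0 UMIs in other CD8 T cells. Cma1, a mast cell chymase gene at the far end of the cluster, went the other way, with 7 UMIs in BiDT and 0 UMIs in Ctrl killer NK cells, against 64 UMIs and 13 UMIs in other NK cells. Mcpt4, another chymase gene, had 2 UMIs and 0 UMIs in killer NK cells, against 16 UMIs, 15 of them in 1 cell, and 0 UMIs in other NK cells. Parp4, further away, had 52.3 CPM and 51.0 CPM in killer NK cells against 47.4 CPM and 53.5 CPM in other NK cells.

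Killer NK cells were then set against the other NK cells, which had at least 2 NK UMIs, no Cd3 or Csf1r UMI and fewer than 3 granzyme D to G UMIs (1282 cells in BiDT and 407 in Ctrl, with medians of 3102.5 and 4108 UMIs, against 4016 and 5708 UMIs in killer NK cells). A gene was called higher or lower where it was at least 1.5-fold apart in the same direction in both libraries, with both intervals excluding 1-fold and at least 50 UMIs over both kinds of cells in each library. Of 7994 genes measured, 95 were higher (1.19%) and 232 lower (2.9%) in killer NK cells. List counts for this comparison below are to be read beside these shares. The genes named next are those with the highest and lowest ratios by a fixed rule, and they were chosen on the same values.

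Genes higher in killer NK cells included stress, calcium and surface proteins. Mt1, which encodes a metal-binding metallothionein, had 835 CPM in killer NK cells against 159 CPM in other NK cells in BiDT (log2 2.40), and 792 CPM against 255 CPM in Ctrl (log2 1.63). Mt2, the second metallothionein, had 421 CPM against 81.8 CPM in BiDT and 372 CPM against 91.5 CPM in Ctrl (log2 2.36 and 2.02). Spp1, osteopontin, a secreted phosphoprotein, had 4540 CPM against 1875 CPM in BiDT and 3102 CPM against 834 CPM in Ctrl (log2 1.28 and 1.89). Metallothionein ratios depended on the comparison cells in Ctrl: with a single NK UMI asked of them, Mt1 stood at -0.10 and Mt2 at -0.11.

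Cd55, a surface regulator of complement, had 101 CPM in killer NK cells against 29.5 CPM in other NK cells in BiDT, and 160 CPM against 13.5 CPM in Ctrl (log2 1.78 and 3.56). Myo10, an unconventional myosin of filopodia, had 241 CPM against 83.5 CPM in BiDT and 199 CPM against 59.8 CPM in Ctrl (log2 1.53 and 1.74). Both differences exceeded counting error in each library, and Cd55 was detected in a minority of killer NK cells, 17.8% in BiDT and 25.4% in Ctrl. Camk4, a calcium-dependent kinase, Gadd45g, a stress-induced growth regulator, and Tmsb15a, an actin-binding thymosin, were also higher, with log2 ratios of 1.00, 1.31 and 2.45 in BiDT and 0.99, 1.21 and 3.89 in Ctrl. The Tmsb15a UMIs of Ctrl killer NK cells sat largely in few cells, with 77.2% in 10 cells.

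Receptors were found on both sides. Havcr2, which encodes TIM3, the inhibitory receptor named in the series title, had 62.8 CPM in killer NK cells against 31.2 CPM in other NK cells in BiDT and 57.9 CPM against 29.1 CPM in Ctrl (log2 1.012 and 0.99). Pdcd1, which encodes the inhibitory receptor PD-1, had 145 CPM against 58.6 CPM and 185 CPM against 113 CPM (log2 1.30 and 0.72). In the list of inhibitory receptors and exhaustion genes, 2 of 20 measured members were higher and 4 lower, among them Tigit (log2 -1.09 in BiDT and -0.66 in Ctrl, the last at 0.04 with a single NK UMI asked of the other cells) and Tox (-0.79 and -1.48). The list's median was -0.17 in BiDT and 0.10 in Ctrl, beside -0.03 and -0.13 over all genes measured.

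Ly49 receptors, which bind MHC class I and set the threshold of NK cells, were lower as a list. Of 7 measured members 5 were lower and 1 higher, with a median of -1.86 in BiDT and -0.92 in Ctrl. Klra4 had 61.1 CPM in killer NK cells against 276 CPM in other NK cells in BiDT, and 40.3 CPM against 166 CPM in Ctrl (log2 -2.18 and -2.05). Klra8, which encodes Ly49H, the activating receptor for a cytomegalovirus protein, had 66.0 CPM against 266 CPM and 47.5 CPM against 166 CPM (log2 -2.01 and -1.81). Klra1, Klra7 and Klra9 had log2 ratios of -1.86, -1.67 and -1.66 in BiDT and -1.69, -0.86 and -0.92 in Ctrl. The exception, Klra5, had 68.3 CPM against 35.9 CPM in BiDT and 66.9 CPM against 35.3 CPM in Ctrl (log2 0.93 and 0.92). Members of this family are similar in sequence, so reads may be split among them.

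Genes of circulating and less differentiated lymphocytes were lower too. In the progenitor and memory list 7 of 14 measured members were lower and 1, Ly6c2, was higher (log2 0.64 in BiDT and 1.19 in Ctrl), with a median of -0.66 and -1.10. Tcf7, the transcription factor of progenitor-like lymphocytes, had log2 ratios of -1.14 and -0.76, Ccr7, a lymph node homing receptor, -1.51 and -2.77, Il7r, the interleukin 7 receptor, -0.71 and -1.21, and Satb1, a chromatin organizer, -0.91 and -0.97. For Ccr7 and other genes that dendritic cells share, the dendritic cell marker list summed to 372 CPM in BiDT and 875 CPM in Ctrl killer NK cells, against 579 CPM and 2656 CPM in other NK cells, and its part in these ratios was not tested.

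Among NK identity and maturation genes, 6 of 23 measured members were lower and none higher, with a median of -0.29 in BiDT and -0.12 in Ctrl. Other NK cells had to carry 2 NK UMIs and killer NK cells 1, and over the settings tried the median reached 0.04 in BiDT and 0.36 in Ctrl, with 1 to 6 members lower and up to 2 higher. Cd7, a surface glycoprotein of T and NK cells, had log2 ratios of -2.51 and -2.38, Cd27, a costimulatory receptor of less mature NK cells, -1.30 and -1.18, and Itgam, which encodes CD11b, a marker of mature NK cells, -0.77 and -1.38. Eomes, a transcription factor of NK cells, had 132 CPM in BiDT and 116 CPM in Ctrl killer NK cells, against 207 CPM and 129 CPM in other NK cells, and was not called. Itga1, which encodes CD49a, an integrin of tissue-resident cells, was the member of the type 1 innate lymphoid list of 23 that was higher, with 129 CPM against 75.4 CPM in BiDT and 228 CPM against 132 CPM in Ctrl (log2 0.77 and 0.79), and 5 members were lower.

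In the list of secreted cytokines 5 of 17 measured members were lower, 2 higher and 10 not called, with a median of -0.15 in BiDT and -0.84 in Ctrl. Ccl5, a chemokine for T cells, had 35.3 CPM in killer NK cells against 278 CPM in other NK cells in BiDT, and 29.5 CPM against 505 CPM in Ctrl (log2 -2.98 and -4.10). Ifng, interferon gamma, had 92.9 CPM against 196 CPM in BiDT and 48.5 CPM against 114 CPM in Ctrl (log2 -1.08 and -1.23). The chemokine genes Ccl3 and Ccl4 had log2 ratios of -0.73 and -1.18 in BiDT and -1.46 and -1.18 in Ctrl. Csf2, which encodes GM-CSF, was higher, with 35.7 CPM against 12.5 CPM in BiDT and 60.4 CPM against 35.3 CPM in Ctrl (log2 1.52 and 0.77), though in Ctrl it stood at -0.18 after thinning to 1000 UMIs.

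Receptors that carry activating cytokine signals differed as well. Il2ra, the high-affinity chain of the interleukin 2 receptor, had 97.0 CPM in killer NK cells against 49.6 CPM in other NK cells in BiDT, and 100 CPM against 62.9 CPM in Ctrl (log2 0.97 and 0.67), the 1 higher member of 24 measured. Il18r1, a chain of the interleukin 18 receptor, had 30.1 CPM against 82.0 CPM and 34.2 CPM against 99.3 CPM (log2 -1.45 and -1.54), 1 of 6 lower members. The chemokine receptor gene Cxcr4 had 44.6 CPM against 139 CPM in BiDT and 26.2 CPM against 191 CPM in Ctrl (log2 -1.63 and -2.86). In the endoplasmic reticulum and secretion list, the chaperone genes Calr (log2 0.76 and 0.71) and Sdf2l1 (0.90 and 0.75) were higher and no member was lower, with a median of 0.47 and 0.36 over 17 measured members. No member of the cytotoxic granule list (17 measured) or the proliferation list (28 measured) was called. Of the interferon list 5 of 34 measured members were lower and none higher (median -0.38 in BiDT and -0.64 in Ctrl), among them Ifi27l2a (log2 -1.10 and -1.11).

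Killer CD8 T cells were set against other CD8 T cells in the same way (2722 cells in BiDT and 1647 in Ctrl, with medians of 2815.5 and 3082 UMIs, against 3988 and 4612 UMIs in killer CD8 T cells). Of 9633 genes measured, 30 were higher (0.311%) and 208 lower (2.16%) in killer CD8 T cells. List counts for these cells over other CD8 T cells are to be read beside these shares. With other CD8 T cells at or above the killer median depth, only 11 of the 30 and 120 of the 208 were still called. Without cells holding a Mki67 or Top2a UMI, 14 and 107 were. Behind Gzmc, Ifitm1, a membrane protein that restricts virus entry, had 815 CPM in killer cells against 364 CPM in other cells in BiDT, and 1014 CPM against 407 CPM in Ctrl (log2 1.16 and 1.32). Its neighbour in the family, Ifitm2, had 461 CPM against 225 CPM and 450 CPM against 254 CPM (log2 1.03 and 0.82). C1qtnf6, a secreted C1q and TNF related protein, had 68.0 CPM against 34.7 CPM in BiDT and 72.3 CPM against 30.3 CPM in Ctrl (log2 0.97 and 1.26).

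Few list members were higher in killer CD8 T cells. Klra5 was the 1 Ly49 gene of 4 measured, with 47.6 CPM in killer cells against 22.2 CPM in other cells in BiDT and 52.0 CPM against 15.4 CPM in Ctrl (log2 1.10 and 1.75), and it was higher in killer NK cells too. Serpinb9b, a relative of the granzyme B inhibitor Serpinb9, had 22.6 CPM against 12.9 CPM in BiDT and 86.8 CPM against 26.4 CPM in Ctrl (log2 0.81 and 1.72), the 1 member of 18 in the cytotoxic granule list. Cd244a, a receptor shared by NK and CD8 T cells, had log2 ratios of 0.81 and 0.75, Car2, a carbonic anhydrase, 1.26 and 0.84, and Tyms, thymidylate synthase, 0.68 and 0.75. Tyms was the 1 member of 28 in the proliferation list, whose median was 0.18 in BiDT and 0.60 in Ctrl, beside -0.06 and -0.09 over all genes. A Mki67 or Top2a UMI was found in 63.8% of BiDT and 54.9% of Ctrl killer CD8 T cells, against 51.2% and 39.9% of other CD8 T cells, which were shallower.

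Progenitor genes and homing receptors were lower in killer CD8 T cells. In the progenitor and memory list 6 of 17 measured members were lower and none higher, with a median of -0.48 in BiDT and -0.98 in Ctrl. Tcf7 had 5.88 CPM in killer cells against 16.9 CPM in other cells in BiDT and 2.34 CPM against 21.3 CPM in Ctrl (log2 -1.52 and -3.18). Slamf6, a surface receptor of progenitor exhausted T cells, had log2 ratios of -1.75 and -1.43, though 0.13 in Ctrl after thinning. Cxcr3, the receptor for Cxcl9 and Cxcl10, had 3.21 CPM against 14.7 CPM and 3.91 CPM against 22.1 CPM (log2 -2.20 and -2.50), and 5 of 10 measured chemokine and egress receptors were lower.

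Of 19 measured cytokine genes 6 were lower in killer CD8 T cells and none higher, with a median of -0.66 in BiDT and -0.47 in Ctrl. Xcl1, the chemokine for cross-presenting dendritic cells, had 38.8 CPM in killer cells against 88.3 CPM in other cells in BiDT and 56.7 CPM against 164 CPM in Ctrl (log2 -1.18 and -1.53). Ccl5 had 317 CPM against 694 CPM in BiDT and 568 CPM against 1403 CPM in Ctrl (log2 -1.13 and -1.30), so it was lower in killer cells of both lineages. Tox, a transcription factor of exhausted T cells, had log2 ratios of -1.06 and -1.49. It was 1 of 3 lower members in the inhibitory list of 21 measured, where 1 was higher (median -0.31 and -0.24), and in the interferon list 4 of 39 were lower and none higher (-0.40 and -0.57). Mmp12, Arg1, Cd86 and Basp1, which tumour macrophages express, were also among the 10 lowest named genes, at log2 -0.78, -0.76, -0.77 and -0.89 in BiDT and -1.45, -0.85, -1.02 and -0.96 in Ctrl. They moved with the macrophage marker sum given above, and its part in them was not tested.

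**Figure D3:**
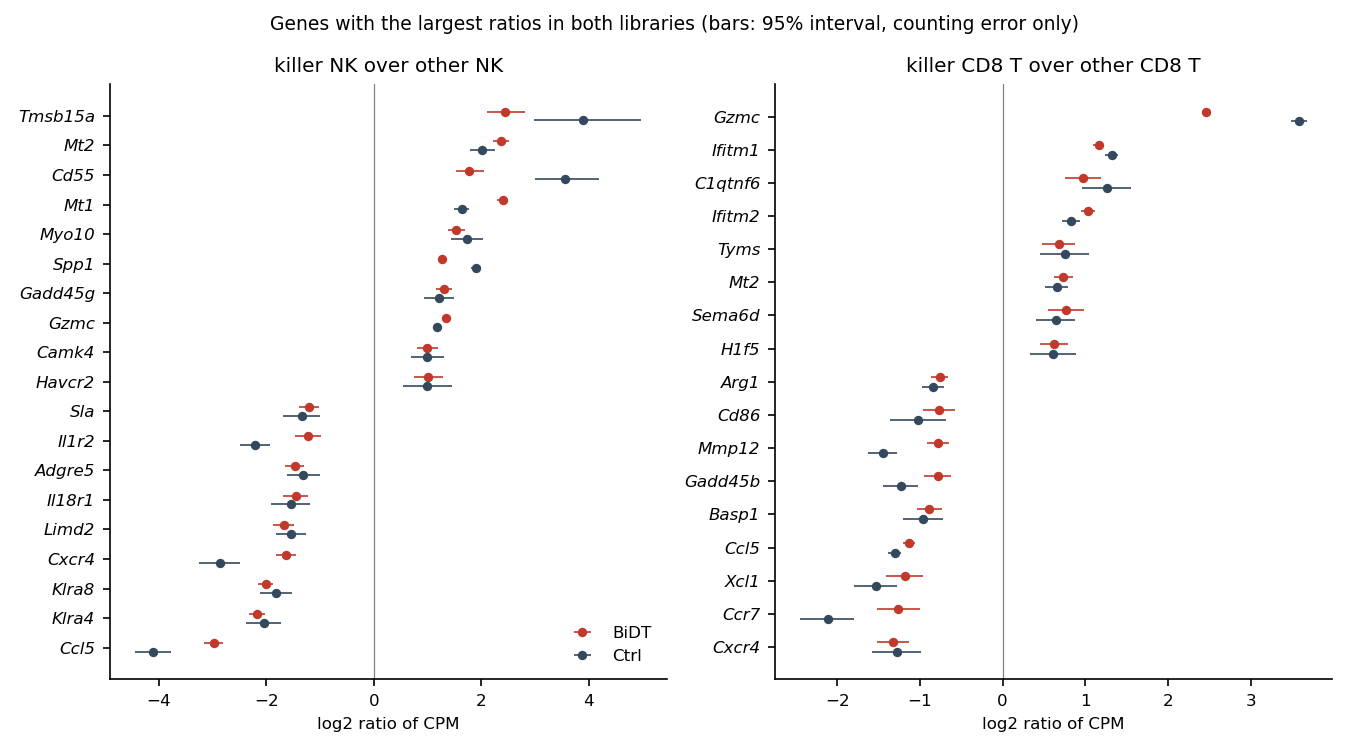
Log2 ratio of CPM (x axis) for genes named by the fixed rule in killer NK over other NK cells (left) and killer CD8 T over other CD8 T cells (right), with 1 point and 95% interval of counting error per library. Gzmc and Mt2 appear on the higher side and Ccl5 and Cxcr4 on the lower side in both panels; the genes were chosen by these ratios.

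Within the killer cells, other genes were followed over 3 ranges of the granzyme sum, as a description. In killer NK cells with 3 to 9, 10 to 49 and 50 or more granzyme D to G UMIs, Spp1 had 1874, 2774 and 7972 CPM in BiDT and 818, 1236 and 5028 CPM in Ctrl. Prf1 had 836, 954 and 1599 CPM in BiDT and 884, 971 and 1966 CPM in Ctrl. Havcr2 had 38.8, 39.6 and 101 CPM in BiDT and 24.6, 33.2 and 84.2 CPM in Ctrl. All 3 genes were highest in the top range, whose cells also had the highest median totals, 6527.5 UMIs in BiDT and 8331 UMIs in Ctrl, against 2823 and 3730 UMIs in the lowest range.

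Mki67, a marker of dividing cells, was highest in the lowest range of killer NK cells, with 361, 341 and 281 CPM in BiDT and 525, 191 and 196 CPM in Ctrl. In killer CD8 T cells Spp1 had 721, 727 and 996 CPM in BiDT and 371, 599 and 658 CPM in Ctrl, and Havcr2 had 267, 272 and 242 CPM in BiDT and 213, 215 and 260 CPM in Ctrl. Mki67 was highest in the top range there, with 518, 504 and 628 CPM in BiDT and 500, 483 and 596 CPM in Ctrl. Prf1 rose over the ranges, with 662, 825 and 1081 CPM in BiDT and 636, 1016 and 1481 CPM in Ctrl. Whether the lineages differ in these trends was not tested. The ranges 3 to 9, 10 to 49 and 50 or more held 33.5%, 41.9% and 24.7% of BiDT and 21.4%, 42.3% and 36.3% of Ctrl killer NK cells.

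**Figure D4:**
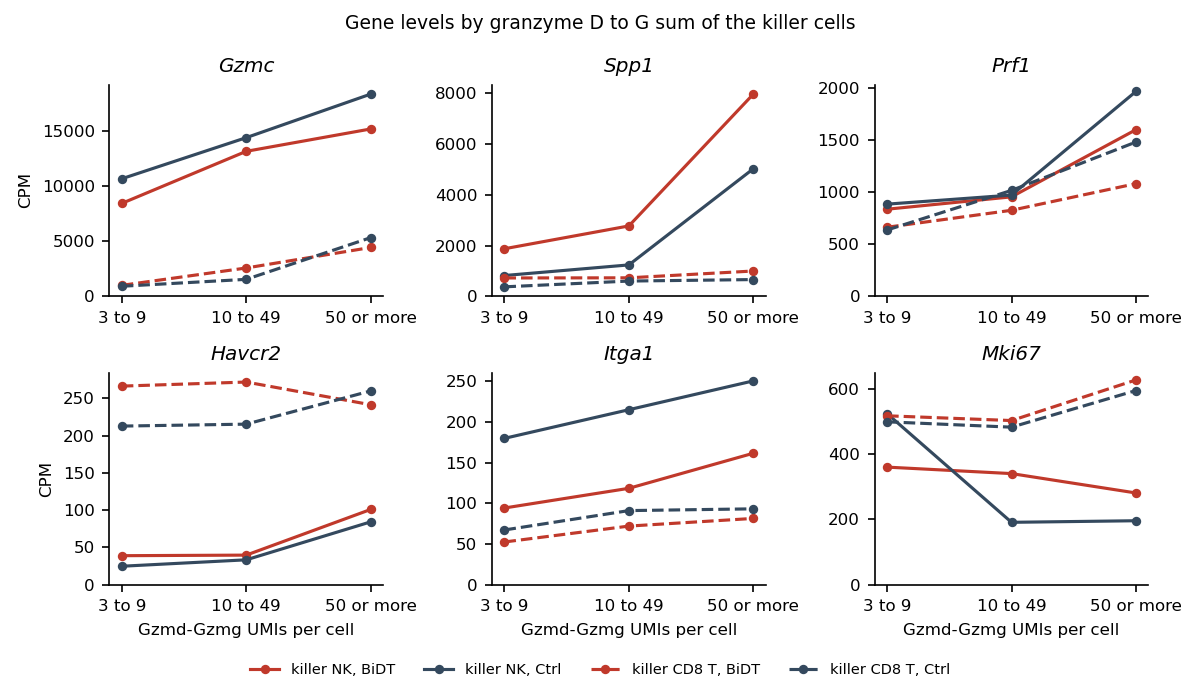
Level of 6 genes (y axis, CPM) in killer cells with 3 to 9, 10 to 49 and 50 or more UMIs summed over Gzmd to Gzmg (x axis), for killer NK cells (solid) and killer CD8 T cells (dashed) of the BiDT and Ctrl libraries. Spp1 in killer NK cells reaches 7972 CPM in BiDT and 5028 CPM in Ctrl in the top range, while killer CD8 T cells stay at or below 996 CPM.

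Between the treatment groups, the type I interferon list had the highest median of the 20 lists in killer NK and in killer T cells. In killer NK cells 1529 of 10082 genes measured were higher in BiDT (15.2%) and 376 lower (3.73%), where a call asks for at least 1.5-fold, an interval that excludes 1-fold and 50 UMIs over both libraries. In killer T cells 1059 of 10373 genes were higher (10.2%) and 501 lower (4.83%). The median over all genes was 0.15 in killer NK and 0.08 in killer T cells. TMM scaling, which trims extreme genes, shifts all log2 ratios by -0.14 in killer NK cells and by -0.04 in killer T cells, and by 0.16 in the Ctrl ratios of killer NK over other NK cells. With it, 1039 genes were higher and 678 lower in BiDT killer NK cells, and 134 were higher and 161 lower in killer NK over other NK cells.

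The interferon list was higher in nearly full number in both lineages. Of its measured members, 43 of 45 were called higher in killer NK cells (median log2 2.23) and 46 of 47 in killer T cells (3.003), beside 44 of 46 in other NK cells (2.08, where 9.28% of all genes were called higher) and 46 of 47 in other CD8 T cells (2.86, where 8.64% were). Isg15, a ubiquitin-like modifier, had 448 CPM in BiDT and 58.6 CPM in Ctrl killer NK cells (log2 2.93). Ifi27l2a, an interferon-induced membrane protein, had 1717 CPM in BiDT and 91.8 CPM in Ctrl killer T cells (log2 4.23). Irf7, the transcription factor that amplifies the response, had 212 CPM and 18.3 CPM in killer NK cells (log2 3.53). Slfn4, Rsad2, Usp18 and Oas3, all induced by interferon, were named in both lineages, with log2 ratios of 3.74, 3.22, 3.11 and 3.89 in killer NK and 5.97, 4.74, 4.58 and 4.44 in killer T cells. Whether the response of killer and other cells differed was not tested.

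Antigen presentation genes were higher with them. In the MHC class I and peptide loading list 8 of 21 members were higher in BiDT killer NK cells (median 0.50), where 15.2% of all genes were. In BiDT killer T cells 15 of 21 were (0.73), where 10.2% of all genes were, and none was lower in either. Over the settings tried the number higher ran from 4 to 9 in killer NK cells and from 5 to 15 in killer T cells. Tap1, a peptide transporter, had 270 CPM in BiDT and 124 CPM in Ctrl killer NK cells (log2 1.12) and 368 CPM and 179 CPM in killer T cells (1.04). H2-K1, a classical class I heavy chain, had 4311 CPM and 2516 CPM in killer T cells (0.78). Nlrc5, the transactivator of class I genes, had 89.6 CPM and 27.7 CPM in killer NK cells (1.70).

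Granzymes responded unevenly. Gzmb had 3021 CPM in BiDT and 1611 CPM in Ctrl killer NK cells (log2 0.91) and 4076 CPM and 1940 CPM in killer T cells (1.07). Gzmc had 12776 CPM and 15871 CPM in killer NK cells and 5493 CPM and 4724 CPM in killer T cells, and was called in neither. Prf1 had 1172 CPM and 1464 CPM in killer NK cells and 933 CPM and 1209 CPM in killer T cells, and Gzma 1433 CPM and 1151 CPM and 783 CPM and 782 CPM, likewise not called. Gzmd, Gzme, Gzmf and Gzmg in sum were 1.16% of the UMIs of BiDT and 1.63% of those of Ctrl killer NK cells, and 0.504% and 0.486% in killer CD8 T cells, a share that the threshold and the depth both bear on. In killer T cells the serpin genes Serpinb9b (35.7 CPM in BiDT and 113 CPM in Ctrl, log2 -1.66) and Serpinb6b (141 CPM and 246 CPM, log2 -0.80) were lower in BiDT, and Fasl, the death ligand, was higher (99.3 CPM and 65.9 CPM, log2 0.59).

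Cytokine genes were higher and lower in BiDT killer NK cells, 8 and 4 of 19 measured, where 15.2% of all genes were higher and 3.73% lower. Ccl3 had 206 CPM in BiDT and 56.1 CPM in Ctrl (log2 1.88), Ccl4 467 CPM and 172 CPM (1.44), Ifng 92.9 CPM and 48.5 CPM (0.94) and Tnf 106 CPM and 52.1 CPM (1.03). Cxcl10, an interferon-induced chemokine, had 163 CPM and 51.4 CPM (1.66). Lower in BiDT were Xcl1, with 280 CPM and 429 CPM (-0.62), and Csf2, with 35.7 CPM and 60.4 CPM (-0.76). In killer T cells Ccl1, a chemokine for type 2 cells, had 14.8 CPM in BiDT and 158 CPM in Ctrl (-3.41), with 78.0% of the Ctrl UMIs in 10 cells, and Ccl5 had 225 CPM and 436 CPM (-0.96).

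Surface and residence genes shifted in killer NK cells. Of 23 measured members of the type 1 innate lymphoid and tissue residence list, 11 were lower and 1 higher in BiDT. The median was -0.59, and 3.73% of all genes were lower. In other NK cells, where 6.48% of all genes were lower, 16 of 23 were. Over the settings tried the number lower ran from 0 to 12 in killer NK cells. Itga1 had 129 CPM in BiDT and 228 CPM in Ctrl (log2 -0.82), Kit, the stem cell factor receptor, 65.6 CPM and 127 CPM (-0.95), and Rgs1, a regulator of G protein signalling, 991 CPM and 1548 CPM (-0.64). Klrd1, the partner chain of the NKG2 receptors, had 639 CPM and 1029 CPM (-0.69), and Tyrobp, a signalling adaptor, 542 CPM and 975 CPM (-0.85). Itgax, which encodes CD11c of dendritic cells and some NK cells, had 40.7 CPM and 150 CPM (-1.88), and Cst7, an inhibitor of granule proteases, 208 CPM and 422 CPM (-1.02). The dendritic cell marker sum was also lower, at 372 CPM in BiDT and 875 CPM in Ctrl killer NK cells, and its part in the Itgax and Ccl17 ratios was not tested.

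In the progenitor and memory list 8 of 15 measured members were higher and 2 lower in BiDT killer NK cells, with a median of 0.68. Of all genes 15.2% were higher there and 3.73% lower. Ly6a, which encodes Sca-1 and is induced by interferon, had 767 CPM in BiDT and 198 CPM in Ctrl killer NK cells (log2 1.95), and Ly6c2 had 2263 CPM and 359 CPM in killer T cells (2.65). Klf2, a transcription factor of circulating lymphocytes, had 117 CPM and 47.5 CPM in killer NK cells (1.30), and Lef1, a relative of Tcf7, 48.6 CPM and 23.01 CPM (1.08). Tcf7 itself was lower in BiDT, with 30.1 CPM and 50.7 CPM (-0.75). Il10ra, the interleukin 10 receptor, was higher in both lineages, with 144 CPM and 37.4 CPM in killer NK cells (1.95) and 204 CPM and 66.5 CPM in killer T cells (1.62). In killer T cells, where 10.2% of all genes were higher, 6 of 8 measured Ly49 genes were, among them Klra1, with 38.4 CPM and 17.6 CPM (1.12). That count ran from 1 to 6 over the settings tried, and the list's median of 0.80 ran from -0.02 to 1.02. Killer T cells without Cd8, most of them with an NK receptor UMI, were 35.5% of killer T cells in BiDT and 21.3% in Ctrl, and the part of this make-up in the Ly49 ratios of killer T cells was not tested.

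The same comparison was made in killer CD8 T cells alone, where 9.69% of 9452 genes measured were higher in BiDT and 4.53% lower. Of the Ly49 genes 4 of 6 measured were higher there (median log2 1.48). Of the interferon list 45 of 46 measured members were higher (median log2 2.95), and of the MHC class I list 15 of 21 (0.74). Ly6c2 had 2635 CPM in BiDT and 323 CPM in Ctrl killer CD8 T cells (3.03). Gzmb had 4809 CPM and 2040 CPM (1.24). In the cytotoxic granule list 1 of 18 members was higher and 3 were lower, and no member of the endoplasmic reticulum list was called. In other CD8 T cells, where 5.66% of all genes were lower, 1 of 23 measured members of the type 1 innate lymphoid list was higher and 3 were lower.

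In the proliferation list 10 of 28 members were higher in BiDT killer NK cells (median 0.46), where 15.2% of all genes were. In killer T cells 3 of 28 were higher (0.14), a share close to the 10.2% of all genes, and none was lower in either. Over the settings tried the number higher ran from 3 to 18 in killer NK cells and from 0 to 5 in killer T cells. Cenpe, a mitotic motor, had 146 CPM in BiDT and 62.2 CPM in Ctrl killer NK cells (log2 1.23), and Ube2c, a mitotic ubiquitin ligase partner, 248 CPM and 114 CPM (1.13). Myc had 142 CPM and 69.7 CPM (1.03). In the glycolysis and hypoxia list 3 of 22 members were lower in killer NK cells and 2 of 22 in killer T cells, and none was higher, where 3.73% and 4.83% of all genes were lower. Over the settings tried these counts ran from 0 to 5 and from 0 to 6, with at most 1 member higher in killer NK cells. Gapdh, a glycolytic enzyme, was lower in BiDT, with 804 CPM and 1370 CPM in killer NK cells (-0.77) and 1074 CPM and 2078 CPM in killer T cells (-0.95). A Mki67 or Top2a UMI was found in 53.8% of BiDT and 35.1% of Ctrl killer NK cells, although the BiDT cells were shallower.

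Several of the widest ratios drew most of their UMIs from 1 cell. In BiDT killer NK cells 61.2% of the UMIs of Igkc, an immunoglobulin light chain gene (log2 4.65), were in 1 cell, and 54.5% of the Ccl17 UMIs of Ctrl killer NK cells (log2 -4.03) were in 1 cell. In Ctrl killer T cells, 235 of the 236 UMIs of Mcpt1, a mast cell protease gene (log2 -6.95), 96.7% of those of Col1a1 (-5.04), 82.3% of those of Col1a2 (-2.78) and 74.2% of those of Col3a1 (-1.83) were in 1 cell each. Collagen genes moved with the fibroblast and tumour marker sum, which includes them and was 113 CPM in BiDT and 415 CPM in Ctrl killer T cells.

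**Figure D5:**
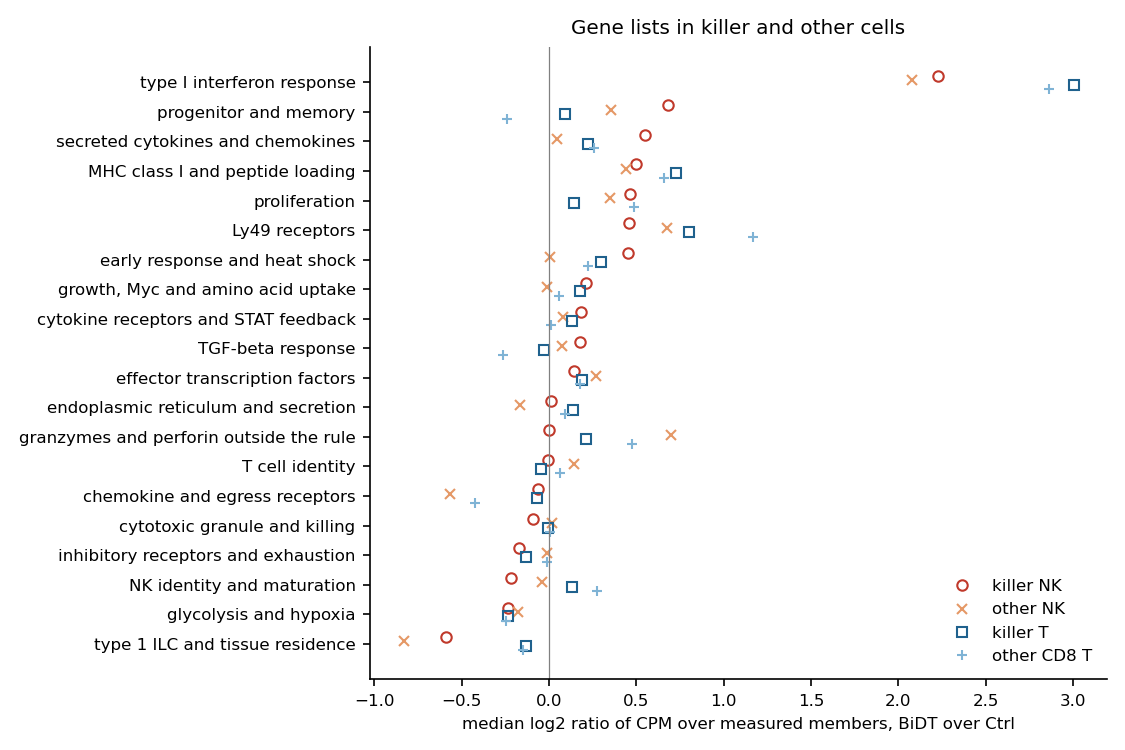
Median log2 ratio of BiDT over Ctrl (x axis) over the measured members of 20 gene lists (rows) in killer NK, other NK, killer T and other CD8 T cells, 1 point per gate with no interval. The interferon list stands apart at 2.08 to 3.003 in all 4 gates, and the other lists lie between -0.83 and 1.17.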

How the data were processed

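Live CD45+ cells of MC38 tumours were profiled as 1 library per group, each pooling 5 biological replicates, so no test between groups was made. The deposited matrices hold raw counts of UMIs per gene and cell, which the authors made with Cell Ranger 7.1.0 and the GRCm39 build, per the submitters' processing notes. The labels do not state its filters. The barcodes have 3 segments of 9 bases. The total was 130313537 UMIs in 34996 BiDT barcodes and 211047063 UMIs in 34310 Ctrl barcodes.

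Cells needed 500 or more UMIs, of which mitochondrial ones made up at most 10%. Counts were summed per gate and library and given as CPM, and ratios carry exact conditional binomial 95% intervals, which cover counting error only. Genes used by the rule, Cd8a and Cd8b1 were not counted among calls, nor were 48 symbols found on several genes. A UMI counts 1 molecule and no gene length correction was applied. The named genes are the 10 with the highest and the 10 with the lowest ratios among called genes with at least 50 CPM on the higher side, leaving out genes at under 10% of their level in cells with 3 or more Csf1r UMIs, and only 8 were higher in killer CD8 T cells. Of the genes on the 20 lists, 9 symbols were absent. Some genes are not reported here. The members and lists were chosen with earlier results of these data known.

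Scrublet in scanpy 1.11.5 called 0 doublets by its own threshold, so it did not work as a caller here. Cells with a score of at least 0.15, 8.16% in BiDT and 6.30% in Ctrl, were kept and left out as an alternative. Intervals came from scipy 1.17.1 and tables from pandas 2.3.3 with numpy 2.4.6, run in Python 3.11.15, with figures by matplotlib 3.10.9. The ratio code was tested on simulated data. Promoters and gene order came from RefSeq tables of GRCm38.p6, and no coordinate of the files was used.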

Additional observations from a re-analysis of the deposited data

Results flagged for a closer look

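Several genes moved in opposite directions between gates or libraries, and none of these differences was tested. Between the treatment groups, Khdc1a had a log2 ratio of -1.89 in killer NK cells (23.4 CPM in BiDT and 86.6 CPM in Ctrl) and 0.60 in other NK cells (30.7 CPM and 20.3 CPM). Prf1 stood at -0.32 in killer NK cells and at 0.70 in other NK cells, where it had 1160 CPM in BiDT and 714 CPM in Ctrl. Cd55 stood at -0.66 in killer NK cells and at 1.13 in other NK cells.

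Spp1 had a ratio of 0.55 in killer NK cells (4540 CPM in BiDT and 3102 CPM in Ctrl) and -0.10 in killer T cells (1824 CPM and 1958 CPM). Gzmb in killer NK over other NK cells stood at -0.075 in BiDT and 0.88 in Ctrl.

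The collagen genes Col1a1, Col1a2 and Col3a1 had ratios of -6.20, -3.70 and -3.83 in killer CD8 T cells and 2.62, 1.63 and 1.16 in other CD8 T cells. In Ctrl killer T cells most of their UMIs were in 1 cell.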

How the results depend on the processing

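No paired analysis was possible because each group is 1 library, and for the same reason no replicate could be left out. Over 16 settings and 278 ratios of single genes, 3052 of 3906 alternative values stayed within the main counting error interval and 841 moved. The other 13 belonged to called genes and changed sign. Sign changes of genes without a call were not tallied apart, and list medians are not in this tally. Shares were judged by the same kind of interval, and numbers of called genes by 1.5 times the main count. Leaving out cells with high doublet scores or barcodes found in both libraries, the last chosen after seeing the data, moved none of the shares or counts below. For the moved values the cause was not tested, apart from thinning, higher minimums and fewer cells, which leave fewer UMIs or genes.

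The log2 ratio of the killer cell share was 1.60 with a granzyme sum of at least 10, 1.57 after thinning to 1000 UMIs, 1.55 with at least 2 lineage UMIs and 1.94 without cells holding a C1q or Ms4a7 UMI. The NK share of BiDT killer cells was 46.9% with a sum of at least 2, 50.8% with 5, 53.3% with 10, 51.6% and 51.7% after thinning to 1000 and 2000 UMIs, 42.1% with 2 lineage UMIs, 62.5% with 2 Cd3 UMIs and 13.97% with receptor constant genes counted. In Ctrl it was 48.3% with a sum of at least 10, 44.9% after thinning to 1000 UMIs, 37.3% with 2 lineage UMIs, 47.7% with 2 Cd3 UMIs and 5.29% with the constant genes.

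For killer NK over other NK cells, the genes higher and lower numbered 41 and 107 with a minimum of 200 UMIs, 33 and 42 at 2-fold, 23 and 71 after thinning, 49 and 119 without C1q or Ms4a7 cells (a setting chosen for the gene counts after seeing the data), and 146 and 968 with 1 NK UMI in the comparison cells. With comparison cells at or above the killer median depth, 63 of the 95 higher and 96 of the 232 lower genes were still called. The lower genes numbered 401 with a granzyme sum of at least 10, 114 with comparison cells at or above the killer median depth, and 362 with 2 NK UMIs on both sides. For killer CD8 T over other CD8 T cells they numbered 12 and 95 with 200 UMIs, 6 and 37 at 2-fold, 15 and 59 after thinning, and 16 and 85 without C1q or Ms4a7 cells. There 342 were lower with a sum of at least 10, and 54 higher by the mean of each cell's CPM. With comparison cells at or above the killer median depth 33 were higher and 238 lower, but only 11 and 120 of these were main calls.

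For BiDT over Ctrl in killer NK cells, 872 genes were higher and 217 lower with 200 UMIs, 655 and 75 at 2-fold, and 683 higher after thinning. The lower genes numbered 678 with TMM scaling, which gave 1039 higher, and 617 by the mean of each cell's CPM. In killer T cells they numbered 622 and 194 with 200 UMIs, 466 and 202 at 2-fold, and 642 and 225 after thinning, and 290 were lower without cells holding a Mki67 or Top2a UMI.

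Without Mki67 or Top2a cells, Ccl1 in Ctrl killer CD8 T over other CD8 T cells turned to 0.48, and in killer T cells of BiDT over Ctrl Col1a1 turned to 0.33, Col1a2 to 0.0093, Klra8 to -0.024 and Ccl3 to -0.0092. After thinning, in Ctrl, Csf2 and Slc2a3 in killer NK over other NK cells turned to -0.18 and -0.046, and Slamf6 in killer CD8 T over other CD8 T cells to 0.13. With comparison cells at the killer median depth, Mt2 in Ctrl killer CD8 T cells turned to -0.024. With 1 NK UMI in comparison cells, the Ctrl killer NK ratios of Mt2, Mt1, Gzma and Tigit turned to -0.11, -0.10, 0.060 and 0.044.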
